A study of Mus musculus with 4 samples.

Results

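The genes described here are those named for the proteins of the cytosolic ribosome. They were chosen by symbol from a table of regulatory T cell transcriptomes: every row whose symbol starts with RPL or RPS and a digit, together with RPLP0, RPLP1, RPLP2 and RPSA, leaving out the RPS6K kinases and rows marked as pseudogenes by -PS. The rule took 89 of the 24452 listed genes, 54 of them named for the large subunit and 35 for the small subunit. RPS19BP1 meets the rule by its symbol but is named as a binding partner of RPS19, so it was counted among the 89 and left out of the subunit sums. RPL37RT, RPL32L and RPS4L also meet the rule but are annotated as processed pseudogenes in GENCODE M21 and have no coding region there; they are counted with the subunit of their name. FAU and RACK1 are ribosomal components that the symbol rule does not take, and they are described apart.

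Regulatory T cells (Tregs) are a CD4 lineage, defined by the transcription factor Foxp3, that holds other immune cells in check. Bulk RNA sequencing was done on liver Tregs of young mice of 2 genotypes: Altre-KO, which lack the Treg long non-coding RNA Altre, and Altre-WT. There were 2 libraries of Altre-KO and 2 of Altre-WT, and the labels give no exact age, sex, allele or sorting gate nor whether different mice gave the libraries within a genotype. P-values therefore measure only the spread between these libraries. The Altre transcript was not analysed here, so the genotypes are taken from the labels.

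A ribosome has a large (60S) and a small (40S) subunit, each built of ribosomal RNA and a fixed set of proteins that, save for those of the stalk, are needed in equal numbers. Most of these proteins are made from abundant, short messenger RNAs that begin with a C and a tract of pyrimidines, the 5'TOP, through which the kinase complex mTORC1 and the RNA-binding protein LARP1 control their translation and stability. In T cells, ribosome production goes up as cells leave rest and grow. The mouse genome also holds many processed pseudogenes of these genes, which makes short reads from them hard to place.

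The starts of the genes were read from RefSeq (GRCm38.p6), which held a promoter entry for 68 of the 89 members. In a window from 10 bases before the annotated start to 20 bases from it on, on the transcribed strand, a C followed by at least 6 bases that were each C or T was present in 31 of the 68 genes (45.6%). A gene with several entries was counted if any of its windows held the run, so such genes had more chances. The same run was present in 15.6% of 27025 genes with an entry, in 18.9% of the 1779 other genes that averaged 100 CPM (reads of a gene per 1000000 on listed genes) or more in these libraries, and in 7 of 69 genes for mitochondrial ribosomal proteins (10.1%). A match describes these letters at an annotated start and is not a mapped transcription start. The windows of 8 members on which the later results turn are shown, with the run in capitals where there is one; the last 4 hold no such run.
Rps6, chr4:86857348-86857377, minus strand: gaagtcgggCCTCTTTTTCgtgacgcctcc
Rpl13a, chr7:45128726-45128755, minus strand: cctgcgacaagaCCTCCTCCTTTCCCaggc
Rpl14, chr9:120571507-120571536, plus strand: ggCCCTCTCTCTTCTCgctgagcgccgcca
Rps15a, chr7:118116128-118116157, minus strand: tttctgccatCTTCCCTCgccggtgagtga
Rps3, chr7:99483690-99483719, minus strand: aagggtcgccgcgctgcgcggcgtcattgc
Rpl6, chr5:121204491-121204520, plus strand: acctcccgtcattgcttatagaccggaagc
Rpl11, chr4:136053374-136053403, minus strand: ccataaggccacggggccggaagtctccct
Rpl26, chr11:68901556-68901585, plus strand: ggcaacttacagaaccggaagtcgcgtgta

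The deposited values were CPM, scaled by the authors to the reads on listed genes. Those reads, estimated from the step between low values, came to 3266132 and 2361928 in Altre-KO libraries 1 and 2, against 1828772 and 2378953 in Altre-WT libraries 1 and 2. Altre-KO library 1 had 32.8% of its implied reads on listed genes and Altre-KO library 2 had 21.5%, against 18.8% and 20.6% in the Altre-WT libraries. The pair of Altre-KO libraries differed more from each other (chi-square 10.3 per degree of freedom over genes) than the pair of Altre-WT libraries (3.44). For the same relative spread this value grows with the number of reads, which differed between the pairs. The 7 Treg markers summed to between 2740 and 2842 CPM in Altre-KO and between 2816 and 2822 CPM in Altre-WT, with none at 0 in all libraries; IKZF2 made up 1226 to 1272 CPM of this. FOXP3 itself had 79.5 and 162 CPM in Altre-KO, against 160 and 140 CPM in Altre-WT. The T cell receptor component CD3E had 53.9 and 84.2 CPM in Altre-KO, against 90.8 and 68.5 CPM in Altre-WT. Altre-KO library 1 was the lowest of the 4 in both, and also in IL2RA and IKZF2. In TNFRSF18 it was the highest, with 292 and 235 CPM in Altre-KO, against 215 and 226 CPM in Altre-WT. In CD4 and CTLA4 it was neither. Of 9 hepatocyte markers, 5 (ALB among them) were at 0 in all libraries, and the list summed to 33.9 to 44.7 CPM in Altre-KO and 26.2 to 43.7 CPM in Altre-WT, nearly all of it from TRF.

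No ribosomal protein gene differed between Altre-KO and Altre-WT Tregs past the test, and as a group they differed less between the genotypes than between the Altre-KO libraries. Of the 89 members, 72 passed the filter on low values and were tested, 7 were below it, and 10 were listed at 0 in all 4 libraries. No tested member passed an adjusted p of 0.05 in limma, where 4 of 10486 tested genes did (0.0381%), all 4 lower in Altre-KO and none of them a ribosomal protein gene. At an unadjusted p under 0.05 there were 2 members, RPL26 and RPL6, where 3.66% of all tested genes were under that value. A limma-voom fit on estimated reads called none of the members, and in the authors' deposited table none was under an adjusted p of 0.05 (0.0123% of listed genes were), with a smallest unadjusted p of 0.0493 for RPL6. The log2 difference of Altre-KO minus Altre-WT had a median of 0.03 over the 72 members and of -0.01 over all tested genes. It was above 0 for 41 members and below 0 for 31, ran between -1.53 and 1.00, and stayed within 1.5-fold for 66. In the 42 tested genes of the large subunit 21 were above 0 and 21 below, and in the 30 of the small subunit, RPS19BP1 included, 20 were above and 10 below. In bulk RNA, a change in how many cells of a kind were present and a change in RNA per cell cannot be told apart.

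The filter can keep a gene through the genotype in which it is higher, so the count was also made over the 79 members above 0 in any library. Of these, 43 were higher and 36 lower in Altre-KO, with a median log2 difference of 0.03. In 9 tested members both Altre-KO libraries lay above both Altre-WT libraries (12.5%, where 14.7% of all tested genes did so). In 6 both Altre-KO libraries lay below (8.33%, where 16.1% of all tested genes did so). Both shares were under those of all tested genes.

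**Figure D1:**
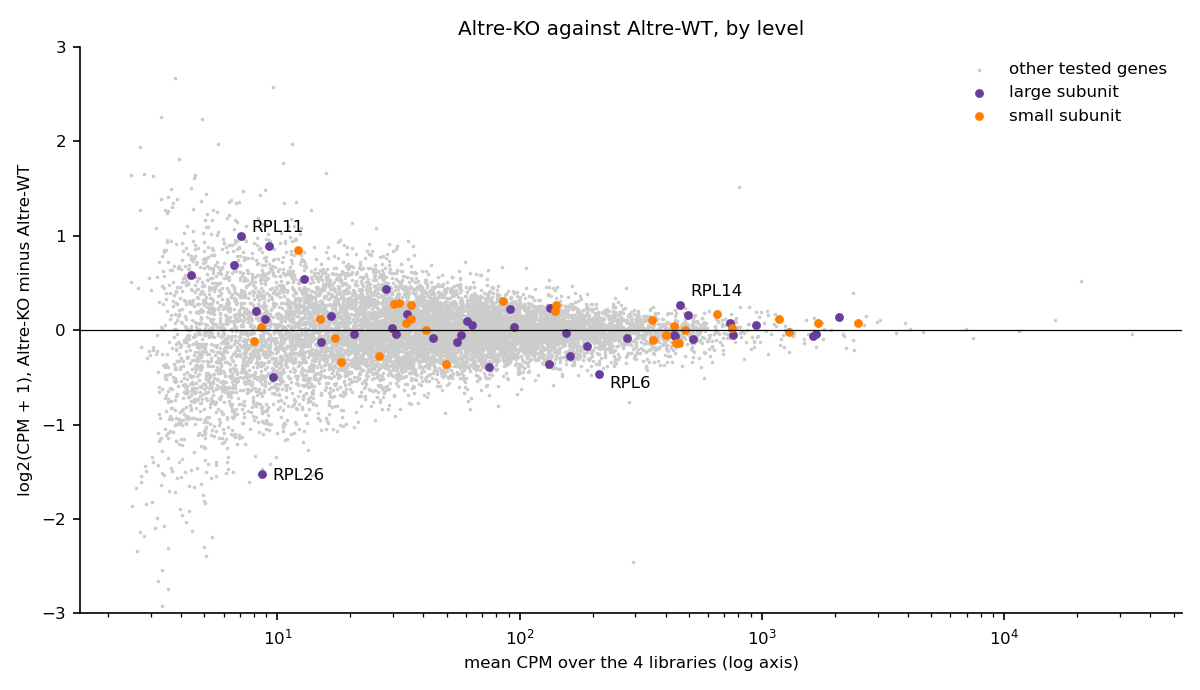
Difference between genotypes, as log2(CPM + 1) in Altre-KO minus Altre-WT, against the mean CPM over the 4 libraries on a log axis, for each tested gene; 3 genes past a difference of 3 are outside the plot. The coloured points of the 42 large and 30 small subunit genes lie along 0 and spread more at low CPM, with RPL26 at -1.53 and RPL11 at 1.00 as the lowest and highest.

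The summed level of all members was 27115 and 21357 CPM in Altre-KO, against 24063 and 23210 CPM in Altre-WT. That is 2.71% and 2.14% of the reads on listed genes in Altre-KO, against 2.41% and 2.32% in Altre-WT, with 95% Wilson intervals of 2.69% to 2.73% and 2.12% to 2.15% in Altre-KO and of 2.38% to 2.43% and 2.30% to 2.34% in Altre-WT. The intervals cover counting error only. Altre-KO held both the highest and the lowest library, and the means were 24236 ± 4071 CPM in Altre-KO and 23637 ± 603 CPM in Altre-WT (SD, n = 2 each; exact permutation test, two-sided, p = 1). With 2 libraries against 2 the smallest p that test can give is 0.333.

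The sums of both subunits had the same order of libraries. The large subunit summed to 13496 and 11041 CPM in Altre-KO, against 12368 and 11963 CPM in Altre-WT. The small subunit summed to 13606 and 10313 CPM in Altre-KO, against 11690 and 11236 CPM in Altre-WT. The ratio of the large to the small subunit was 0.992 and 1.07 in Altre-KO, against 1.06 and 1.06 in Altre-WT (exact permutation test, two-sided, p = 1). Only Altre-KO library 1 had more on the small subunit than on the large.

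In these genes the Altre-KO libraries stood further apart from each other than from the Altre-WT libraries. Altre-KO library 1 was the highest of the 4 in 41 of the 72 tested members (56.9%), where it was the highest in 30.7% of all tested genes. Altre-KO library 2 was the lowest in 39 (54.2%), where it was the lowest in 27.7% of all tested genes. Both held at once for 23 members (31.9%, against 11.2% of all tested genes). The median log2 difference between Altre-KO libraries 1 and 2 was 0.30 over the members and 0.06 over all tested genes, and between Altre-WT libraries 1 and 2 it was -0.05 over the members and -0.02 over all tested genes.

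Among members that averaged 100 CPM or more, where counting error is small, the order was uniform. Altre-KO library 1 lay above Altre-KO library 2 in 33 of 33, against 56% of all tested genes at any level. The median log2 difference was 0.33, against 0.05 over the 2328 genes at 100 CPM or more. Altre-KO library 2 was the lowest of the 4 in 26 of the 33 (78.8%, against 28.4% of genes at that level), and Altre-KO library 1 the highest in 23 (69.7%, against 34.5%). Over all 72 tested members, the median log2 difference of Altre-KO minus Altre-WT was -0.14 without Altre-KO library 1 and 0.19 without Altre-KO library 2. Altre-KO library 1 was also the library with the largest share of reads on listed genes, the lowest FOXP3 and the highest TNFRSF18. Its 7 macrophage and monocyte markers, with CLEC4F at 0, summed to 265 CPM and those of Altre-KO library 2 to 144 CPM, against 172 and 264 CPM in the Altre-WT libraries. Their part in the difference between libraries was not tested.

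**Figure D2:**
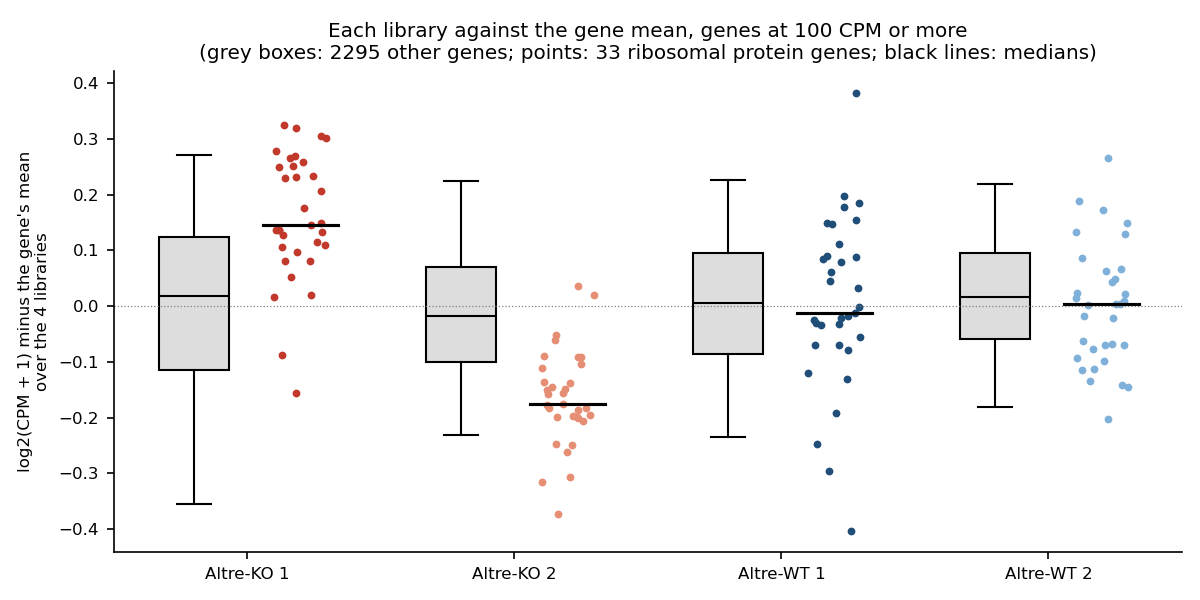
Log2(CPM + 1) of each library minus the gene's mean over the 4 libraries, for genes at 100 CPM or more; grey boxes hold the middle of 2295 other genes with whiskers at the 5th and 95th percentiles, points are the 33 ribosomal protein genes and black lines are medians. The medians of the ribosomal protein genes were 0.15 in Altre-KO library 1 and -0.18 in Altre-KO library 2, against -0.01 and 0.00 in the Altre-WT libraries, while those of the other genes lay between -0.02 and 0.02.

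A few genes carried most of the level. The 10 members with the highest mean CPM (RPS3, RPL13A, RPL8, RPL4, RPS9, RPL32, RPL41 and RPS14 among them) held 60.5% of the summed level, and 7 members averaged 1000 CPM or more, 33 averaged 100 or more and 55 averaged 20 or more. RPS3, a small subunit protein at the entry of the messenger RNA channel, had 3007 and 2158 CPM in Altre-KO, against 2456 and 2365 CPM in Altre-WT. RPL13A, which in human monocytes also leaves the ribosome to repress inflammatory messenger RNAs, had 2449 and 1907 CPM in Altre-KO, against 1962 and 1962 CPM in Altre-WT. In both genes Altre-KO library 1 was the highest and Altre-KO library 2 the lowest.

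RPL8, a large subunit protein near the catalytic centre, had 1824 and 1468 CPM in Altre-KO, against 1793 and 1581 CPM in Altre-WT. RPL4, which lines the exit tunnel, had 1714 and 1466 CPM in Altre-KO, against 1722 and 1597 CPM in Altre-WT. RPL41, the smallest ribosomal protein, had 827 and 661 CPM in Altre-KO, against 833 and 703 CPM in Altre-WT. The genotypes overlapped in all 10 of the highest genes. Without these 10, the other 79 members summed to 10557 and 8442 CPM in Altre-KO, against 9281 and 9537 CPM in Altre-WT, so the order of the Altre-KO libraries was the same.

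Levels can be set against each other per length. Divided by the length of 1 annotated transcript per gene (GENCODE M21), RPL13A had 1977 CPM per kb, RPL8 had 1958, RPL32 had 1828 and the annotated pseudogene RPL37RT had 1771 (means over the 4 libraries). RPL6 had 167 CPM per kb, RPL26 had 16.4 and RPL11 had 8.53. The table's level per length was thus 232 times as high for RPL13A as for RPL11, 2 proteins that the ribosome holds in equal numbers. The value depends on which annotated transcript gives the length.

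**Figure D3:**
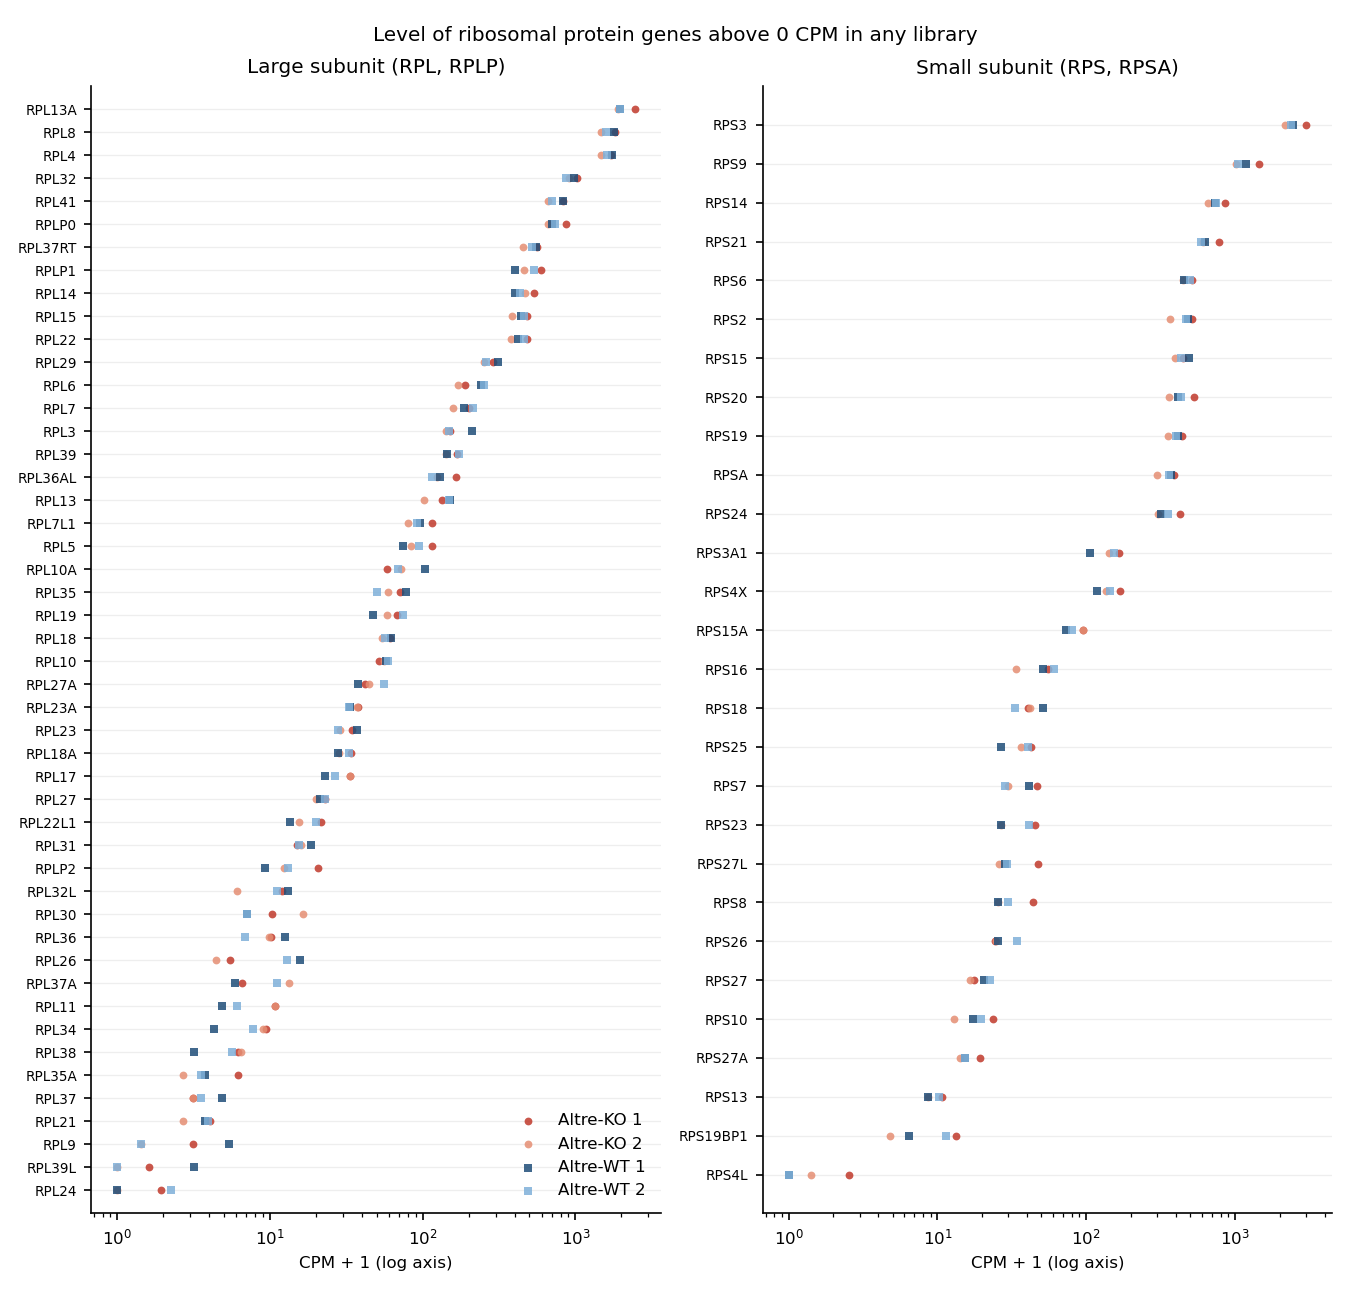
CPM + 1 on a log axis in each of the 4 libraries (circles Altre-KO, squares Altre-WT) for members above 0 CPM in any library, by subunit and ordered by mean CPM. Levels run over more than 3 powers of 10, libraries lie close together above 100 CPM, and Altre-KO library 1 is at the right edge for most of the high genes.

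The stalk and the panel of well-studied members showed no genotype difference past the test. RPLP0 and RPLP1, proteins of the stalk that recruits elongation factors, had 865 and 660 CPM (RPLP0) and 591 and 456 CPM (RPLP1) in Altre-KO, against 698 and 739 CPM (RPLP0) and 399 and 536 CPM (RPLP1) in Altre-WT. RPLP2, their partner in the stalk, had 19.6 and 11.4 CPM in Altre-KO, against 8.20 and 12.2 CPM in Altre-WT. The genotypes overlapped in all 3. RPS6, the small subunit protein that S6 kinases phosphorylate downstream of mTORC1, had 512 and 450 CPM in Altre-KO, against 456 and 500 CPM in Altre-WT.

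RPS19, the protein most often mutated in Diamond-Blackfan anaemia in humans, had 439 and 356 CPM in Altre-KO, against 415 and 403 CPM in Altre-WT. RPSA, which is also known as a laminin receptor, had 391 and 297 CPM in Altre-KO, against 373 and 359 CPM in Altre-WT. RPL5 binds Mdm2 together with RPL11 when ribosome assembly is disturbed. It had 113 and 83.3 CPM in Altre-KO, against 73.8 and 93.5 CPM in Altre-WT. Genotypes overlapped in each of them. RPL3, near the catalytic centre, had 151 and 141 CPM in Altre-KO, against 209 and 148 CPM in Altre-WT, where a single Altre-WT library stood above the rest. RPS25, which viral internal ribosome entry sites need, had 41.7 and 35.6 CPM in Altre-KO, against 25.7 and 39.4 CPM in Altre-WT.

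The 6 members with both Altre-KO libraries below both Altre-WT libraries were RPL26, RPL6, RPL13, RPS27, RPS26 and RPL10. RPL6, a large subunit protein (chr5:121204481-121209241, plus strand), had 188 and 169 CPM in Altre-KO, against 240 and 252 CPM in Altre-WT. Its means were 178 ± 13.3 CPM in Altre-KO and 246 ± 8.30 CPM in Altre-WT (SD, n = 2 each), a log2 difference of -0.46 ± 0.16 (SE) with an adjusted p of 0.999 in limma. The genotypes did not overlap in CPM, but the difference did not hold after adjustment over all genes. Estimated reads, at 613 and 399 in Altre-KO and 439 and 599 in Altre-WT, did overlap. The place of Altre-KO library 1 thus rests on scaling to its larger number of reads.

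RPL26, a large subunit protein at the tunnel exit that in human cells also binds p53 messenger RNA (chr11:68901583-68906989, plus strand), had 4.49 and 3.45 CPM in Altre-KO, against 14.7 and 11.9 CPM in Altre-WT. That was a log2 difference of -1.53 ± 0.49 (SE), with an adjusted p of 0.999 in limma, and it turned to 0.07 when a listed copy of RPL26, described further on, was added. RPL13 had 132 and 101 CPM in Altre-KO, against 149 and 148 CPM in Altre-WT (log2 difference -0.36, adjusted p = 0.999 in limma). RPS27 had 16.5 and 15.7 CPM in Altre-KO, against 19.7 and 21.4 CPM in Altre-WT. RPS26, a protein of the messenger RNA exit that is a Diamond-Blackfan anaemia gene in humans, had 23.3 and 23.7 CPM in Altre-KO, against 24.6 and 33.2 CPM in Altre-WT. RPL10, one of the last proteins to join the large subunit, had 50.5 and 55.0 CPM in Altre-KO, against 56.9 and 58.0 CPM in Altre-WT.

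The 9 members with both Altre-KO libraries above both Altre-WT libraries included RPL11, RPL30, RPL14, RPS15A, RPL17, RPL34, RPL38 and RPL23A. RPL11, the Mdm2-binding partner of RPL5 (chr4:136028265-136053428, minus strand), had 9.80 and 9.74 CPM in Altre-KO, against 3.83 and 5.04 CPM in Altre-WT (log2 difference 1.00 ± 0.51 (SE), adjusted p = 0.999 in limma). RPL30 had 9.32 and 15.5 CPM in Altre-KO, against 6.08 and 6.03 CPM in Altre-WT. Both rest on few reads, since 1 read was worth between 0.306 and 0.547 CPM in these libraries.

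RPL14 (chr9:120571444-120574654, plus strand) was the highest of the 9, with 538 and 469 CPM in Altre-KO, against 400 and 433 CPM in Altre-WT (log2 difference 0.27 ± 0.15 (SE), adjusted p = 0.999 in limma). RPS15A had 94.9 and 94.0 CPM in Altre-KO, against 72.2 and 79.9 CPM in Altre-WT. RPL17 had 32.1 and 32.6 CPM in Altre-KO, against 21.9 and 25.6 CPM in Altre-WT. RPL38, which in mouse embryos is needed for the translation of certain Hox messenger RNAs, had 5.21 and 5.50 CPM in Altre-KO, against 2.19 and 4.62 CPM in Altre-WT. RPL34 had 8.48 and 8.04 CPM in Altre-KO, against 3.28 and 6.73 CPM in Altre-WT, and RPL23A had 36.7 and 36.0 CPM in Altre-KO, against 32.3 and 31.9 CPM in Altre-WT. Among these genes the gap between the genotypes was at times smaller than that between libraries of 1 genotype, as in RPL34.

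The 5 tested members with the widest range within a genotype were RPS19BP1, RPL37A, RPL32L, RPS10 and RPS27L, all of them under 100 CPM. RPS19BP1 had 12.2 and 3.81 CPM in Altre-KO, against 5.47 and 10.5 CPM in Altre-WT. RPL37A had 5.51 and 12.3 CPM in Altre-KO, against 4.92 and 10.1 CPM in Altre-WT. In both, a library of each genotype was near either end of the range.

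Several ribosomal proteins have a paralogue, and the share of each pair assigned to the paralogue was compared between genotypes. RPL22L1 took 4.11% and 3.69% of RPL22L1 and RPL22 together in Altre-KO, against 2.90% and 3.97% in Altre-WT. RPL22, which alpha-beta T cell development in the mouse needs, itself had 479 and 376 CPM in Altre-KO, against 422 and 458 CPM in Altre-WT. RPL7L1 took 36.6% and 33.3% of its pair with RPL7 in Altre-KO, against 34% and 29.7% in Altre-WT. RPS27L, a p53 target in human cells, took 73.7% and 61.5% of its pair with RPS27 in Altre-KO, against 58.1% and 56.8% in Altre-WT. Of these 3 pairs only that of RPS27L did not overlap between genotypes, and the exact permutation test gave p = 0.333, the smallest it can give. Its difference of 10.1 percentage points was 4.0 without Altre-KO library 1 and 16.2 without Altre-KO library 2. By the comparison of coding regions described further on, RPS27 has 4 near-identical copies and RPS27L has 0. The share takes no account of those copies.

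Paralogues known from striated muscle and testis were at or near 0. RPL3L, the heart and skeletal muscle paralogue of RPL3, and RPL10L, the testis paralogue of RPL10, were listed at 0 in all 4 libraries. RPL39L, another testis-enriched paralogue, had 0.61 and 0 CPM in Altre-KO, against 2.19 and 0 CPM in Altre-WT, while RPL39 had 167 and 141 CPM in Altre-KO, against 143 and 172 CPM in Altre-WT. RPS4L, an annotated pseudogene, had 1.53 and 0.42 CPM in Altre-KO and was listed at 0 in both Altre-WT libraries, while RPS4X had 167 and 134 CPM in Altre-KO, against 117 and 143 CPM in Altre-WT. RPL36AL had 165 and 124 CPM in Altre-KO, against 129 and 114 CPM in Altre-WT, and its partner RPL36A was listed at 0.

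The members listed at 0 include core proteins that every cytosolic ribosome carries. Besides RPL3L, RPL10L and RPL36A they were RPL7A, RPL12, RPL28, RPS12, RPS27RT, RPS28 and RPS29. RPL9, RPL21, RPL24, RPL35A and RPL37 were above 0 but under the filter. A value of 0 here is the table's and does not show that the gene was silent. The coding region of each member was compared with all annotated GENCODE M21 transcripts, and 81 of the 89 members had at least 1 other gene at 95% identity over 80% of the coding length. RPL21 had 57 such genes, RPL7A had 31, RPL29 had 27, RPS2 had 26 and RPS12 had 22.

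Median levels were lower for members with 11 or more copies than for those with 0 or 1 copy (RPS19BP1 left out). The median was 84.7 CPM over the 20 members with 0 or 1 copy, 45.2 CPM over the 30 with 2 to 5, 45.4 CPM over the 22 with 6 to 10 and 32.2 CPM over the 16 with 11 or more. The classes overlapped widely: RPS2, with 26 copies, had 510 and 362 CPM in Altre-KO, against 480 and 467 CPM in Altre-WT, while RPL3L, with none, was listed at 0. How reads that match several genes were treated is not given in the sources used here. In 72 of the 79 members above 0 the values were whole reads in every library within 0.02 of a read, and in 7 members at least 1 library held a fraction.

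Some copies are rows of the same table, and several were above the gene they copy. GM15772, a processed pseudogene on chr5:3236431-3236868 (plus strand), differs from the 435 coding bases of RPL26 at 2 positions. RPL14-PS1, a processed pseudogene on chr7:45324965-45325617 (plus strand), differs from the 651 coding bases of RPL14 at 7, of which 3 are unaligned. Coding bases 147 to 206 of Rpl26 and 391 to 450 of Rpl14, counted from the A of the start codon, are shown with those of the copy to make plain how few bases tell a read from either apart. Capitals mark the bases that differ (GRCm38, GENCODE M21 transcripts).
Rpl26: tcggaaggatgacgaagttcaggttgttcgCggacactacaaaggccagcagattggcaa
Gm15772: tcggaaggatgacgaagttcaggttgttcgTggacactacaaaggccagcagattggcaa
Rpl14: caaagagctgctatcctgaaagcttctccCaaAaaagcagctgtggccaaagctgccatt
Rpl14-ps1: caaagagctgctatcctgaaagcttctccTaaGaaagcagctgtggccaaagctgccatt

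GM15772 had 37.5 and 28.7 CPM in Altre-KO, against 22.0 and 21.3 CPM in Altre-WT, the opposite order to RPL26. Added to RPL26 it gave 41.9 and 32.2 CPM in Altre-KO, against 36.6 and 33.2 CPM in Altre-WT, and the log2 difference of -1.53 for RPL26 alone became 0.07 with genotypes that overlapped. RPL14-PS1 had 727 and 493 CPM in Altre-KO, against 548 and 590 CPM in Altre-WT, above RPL14 in every library. With it RPL14 came to 1265 and 962 CPM in Altre-KO, against 949 and 1023 CPM in Altre-WT, with a log2 difference of 0.16 and genotypes that overlapped. Other members kept their genotypes apart with their listed copies added. RPS15A came to 189 and 171 CPM in Altre-KO, against 138 and 149 CPM in Altre-WT, and RPL30 to 11 and 16.1 CPM in Altre-KO, against 7.65 and 7.56 CPM in Altre-WT. RPL34 came to 10.4 and 8.04 CPM in Altre-KO, against 3.28 and 6.73 CPM in Altre-WT, and RPS26 to 25.1 and 23.7 CPM in Altre-KO, against 27.3 and 34.1 CPM in Altre-WT. Adding copies was an alternative chosen after the values were seen.

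The row RPLP2-PS1 had 1057 and 751 CPM in Altre-KO, against 843 and 857 CPM in Altre-WT and was above RPLP2 in every library. RefSeq (GRCm38.p6) places it as a transcribed pseudogene at chr12:75630918-75631749, within the span of Wdr89 (chr12:75630594-75669537). Summed with RPLP2 it gave 1077 and 762 CPM in Altre-KO, against 852 and 869 CPM in Altre-WT, so that Altre-KO library 1 was again the highest and Altre-KO library 2 the lowest. GM15421 had 103 and 71.5 CPM in Altre-KO, against 71.6 and 79.5 CPM in Altre-WT, and differs from the 366 coding bases of RPL22L1 at 20, of which 19 are unaligned. RPL22L1 itself had 20.5 and 14.4 CPM in Altre-KO, against 12.6 and 18.9 CPM in Altre-WT, and the paralogue share given above does not include GM15421.

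Near-identical pairs also stood inside the member list. RPL37RT had 559 and 452 CPM in Altre-KO, against 550 and 522 CPM in Altre-WT, while RPL37, whose coding bases are 99.7% identical to that pseudogene, had 2.14 and 2.12 CPM in Altre-KO, against 3.83 and 2.52 CPM in Altre-WT. RPS27 and RPS27RT are identical over the coding region, and RPS27RT was listed at 0. RPL21, with its 57 copies, had 3.06 and 1.69 CPM in Altre-KO, against 2.73 and 2.94 CPM in Altre-WT. BC004004, listed as protein-coding and 98.5% identical to it, had 68.9 and 52.9 CPM in Altre-KO, against 58.5 and 61.8 CPM in Altre-WT.

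**Figure D4:**
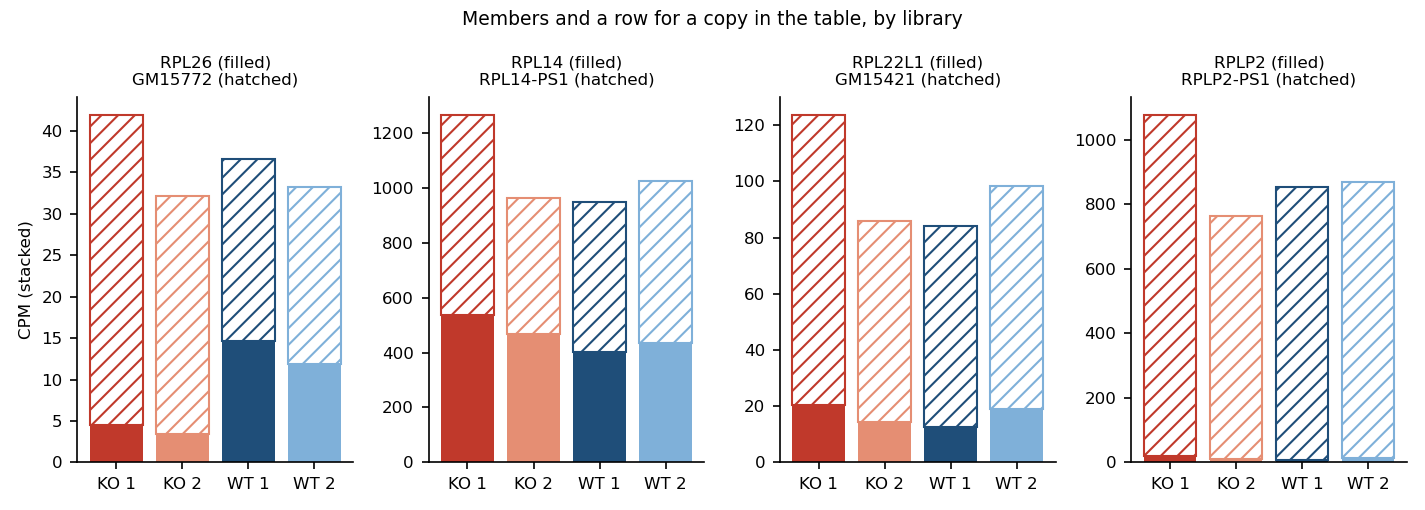
CPM of RPL26, RPL14, RPL22L1 and RPLP2 (filled) with a row for a copy of it in the table stacked on top (hatched), in each library, Altre-KO in red and Altre-WT in blue. RPL26 is lower in both Altre-KO libraries while its stack, at 41.9 and 32.2 CPM in Altre-KO and 36.6 and 33.2 CPM in Altre-WT, overlaps between genotypes.

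Among the ribosomal components outside the symbol rule, no genotype difference passed the test. RACK1, the small subunit scaffold for signalling kinases, had 3059 and 2329 CPM in Altre-KO, against 2799 and 2376 CPM in Altre-WT. FAU, which encodes a small subunit protein fused to a ubiquitin-like one, had 49.3 and 34.3 CPM in Altre-KO, against 57.4 and 46.2 CPM in Altre-WT. Altre-KO library 2 was the lowest in both.

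Genes that work with the ribosome were read in lists, and none of their members passed an adjusted p of 0.05 in limma. Some genes stand in several lists, such as EEF1B2 among both the 5'TOP genes and the elongation factors. The lists are therefore not separate readings. Of 24 other genes with a 5'TOP, 15 were higher and 9 lower in Altre-KO, with a median log2 difference of 0.04. At an unadjusted p under 0.05 in limma there were 2 (3.66% of all tested genes were). HNRNPA1, an RNA-binding protein, had 54.6 and 26.4 CPM in Altre-KO, against 16.3 and 25.6 CPM in Altre-WT. NACA, a subunit of the nascent chain-associated complex, had 51.1 and 59.7 CPM in Altre-KO, against 89.1 and 71.0 CPM in Altre-WT. These gave adjusted p = 0.999 each in limma. Altre-KO library 1 was the highest in 15 of the 24 (62.5%, against 30.7% of all tested genes). Altre-KO library 2 was the lowest in only 6 (25%, against 27.7% of all tested genes).

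Of 37 initiation factors 15 were higher and 22 lower in Altre-KO, with a median of -0.06. None was at an unadjusted p under 0.05 in limma (3.66% of all tested genes were). EIF5B, the GTPase that joins the subunits, had 40.7 and 67.0 CPM in Altre-KO, against 73.0 and 68.6 CPM in Altre-WT. Of 13 elongation and termination factors 7 were higher and 6 lower. EEF1B2, an exchange factor for eEF1A, had 729 and 564 CPM in Altre-KO, against 553 and 565 CPM in Altre-WT. Their medians, -0.06 and 0.01, lay near the -0.01 of all tested genes. Altre-KO library 1 was the highest in 45.9% of the initiation and 53.8% of the elongation and termination factors (30.7% of all tested genes). Altre-KO library 2 was the lowest in 51.4% and 46.2% of them (27.7% of all tested genes).

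Of 74 tested ribosome biogenesis factors 37 were higher and 37 lower in Altre-KO. RCL1, which works in small subunit assembly, had 34.6 and 25.0 CPM in Altre-KO, against 67.8 and 33.6 CPM in Altre-WT. SBDS, which matures the large subunit, had 50.8 and 49.1 CPM in Altre-KO, against 44.3 and 24.0 CPM in Altre-WT. Of 19 tested genes of RNA polymerase I and its factors 12 were higher and 7 lower, with TAF1A at 26.3 and 23.3 CPM in Altre-KO, against 15.9 and 11.8 CPM in Altre-WT. POLR1A, the largest polymerase subunit, had 86.0 and 97.0 CPM in Altre-KO, against 113 and 116 CPM in Altre-WT. Of 16 ribosome quality control genes 8 were higher and 8 lower. At an unadjusted p under 0.05 in limma there were 2 biogenesis factors, 1 RNA polymerase I gene and 0 quality control genes (3.66% of all tested genes were). Altre-KO library 1 was the highest in 45.9% of biogenesis, 57.9% of polymerase and 37.5% of quality control genes (30.7% of all tested genes). Altre-KO library 2 was the lowest in 40.5%, 31.6% and 31.2% of them (27.7% of all tested genes).

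The list of mTORC1 and TOP regulators had the lowest median, at -0.17, with 8 of 20 higher and 12 lower in Altre-KO. At an unadjusted p under 0.05 in limma there was 1 (3.66% of all tested genes were). The library order of this list was not that of the ribosomal protein genes. Altre-KO library 1 was the highest in 3 of the 20 (15%, against 30.7% of all tested genes). Altre-KO library 2 was the lowest in 0 (against 27.7%). LARP1 had 115 and 188 CPM in Altre-KO, against 185 and 167 CPM in Altre-WT. MTOR had 74.4 and 108 CPM in Altre-KO, against 117 and 95 CPM in Altre-WT. In both, Altre-KO library 1 was the lowest of the 4. AKT1S1, an inhibitory component of mTORC1, had 27.6 and 22.0 CPM in Altre-KO, against 19.7 and 8.41 CPM in Altre-WT. The list's median was 0.08 without Altre-KO library 1 and 0.05 without Altre-WT library 1.

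Mitochondrial ribosomal proteins, which build the ribosome of the mitochondrion and are not classed as 5'TOP genes, were set beside the cytosolic ones. Of 76 tested, 39 were higher and 37 lower in Altre-KO, with a median log2 difference of 0.02. At an unadjusted p under 0.05 in limma there were 3 (3.66% of all tested genes were). Altre-KO library 1 was the highest in 38 (50%, against 30.7% of all tested genes). Altre-KO library 2 was the lowest in 33 (43.4%, against 27.7%). Their summed level was 2474 and 1974 CPM in Altre-KO, against 2164 and 2099 CPM in Altre-WT, with the same order of libraries as the cytosolic sum. MRPS7 had 42.6 and 33.5 CPM in Altre-KO, against 27.3 and 21 CPM in Altre-WT, and MRPL28 had 47.8 and 31.8 CPM in Altre-KO, against 24.1 and 25.6 CPM in Altre-WT (adjusted p = 0.999 each in limma).

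Members with and without the start-site run were set side by side. Among tested members with a promoter entry, the 26 with a run had a median log2 difference of 0.03 and the 28 without one had -0.04. Altre-KO library 1 lay above Altre-KO library 2 in 20 of the 26 with a run and in 26 of the 28 without one. It did so in 84.7% of all tested members and in 56% of all tested genes. The groups also differed in level, with a median of 59.1 CPM with a run and 114 CPM without one. The part of level or run in this was not tested.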

How the data were processed

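RNA of 4 liver Treg libraries was sequenced. Per the labels' protocols, an RNeasy Micro Kit gave total RNA and a SMARTER mRNA kit the libraries. The submitters' processing notes name STAR, cutadapt, DESeq2 and mm10; no source used here gives their roles, the counter or the annotation. The deposited table holds RPM (from the values, with 0.0001 added) and CPM per library, per the file headers, and the authors' mean signal per genotype, log2 fold change, p-value and adjusted p-value. CPM was scaled by the authors to the listed genes. Only 92.9% to 93.8% of RPM values were whole reads within 0.02 of a read, so no count test was the main test.

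Here log2(CPM + 1) was fitted with limma 3.58.1 (trended variance, R 4.3.3) for genes at 4.22 CPM (10 estimated reads at the median depth) or more in at least 2 libraries, with Benjamini-Hochberg adjustment over 10486 genes. The pseudocount understates differences of low genes. Sums, ratios and shares were compared with an exact permutation test. Copies were found with blastn 2.17.0. Gene positions are those of GENCODE M21 (GRCm38), in which all 89 members matched by symbol. Named genes were the members with non-overlapping genotypes and the smallest p (up to 8 a direction), the 10 highest, the 5 with the widest range, a panel, and the 2 smallest p of each list; RPL23A, MTOR, LARP1, RACK1 and the genes named for their copies, for a value of 0 or below the filter were named after their values were seen. The members and lists were chosen with earlier results of these data known. Whether the replicate numbers pair the libraries is not stated in the labels. The Altre-KO and Altre-WT differences between numbers had a correlation of -0.01 over tested genes, which cannot settle it. Values of some genes that the rule for names takes are not reported here.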

Additional observations from a re-analysis of the deposited data

How the results depend on the processing

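No ribosomal protein gene passed an adjusted p of 0.05 in the alternative fits tried, which were other pseudocounts, filters, scalings, limma-voom, robust moderation, a looser threshold, leaving out each library and adding listed copies. The 4 genes called over the whole table were 2 with a pseudocount of 0.1 and 1 with robust moderation, and 6 to 16 with a library left out. With the replicate number as a block, which is no known pairing, 6 genes and 0 ribosomal protein genes were called. Of 421 alternative values of 30 named genes, 420 kept their direction, and RPL26 with its listed copies was 0.073. These genes were named for non-overlapping genotypes or a small p in these same data. Where genotypes did not overlap, leaving out a library could not turn the direction. Robust moderation and the replicate block left each difference as it was. The count was thus largely fixed in advance and is no measure of stability. Leaving out each library in turn moved the median of the ribosomal protein genes between -0.14 and 0.19, their sum between -0.15 and 0.20, the large subunit's sum between -0.14 and 0.15 and the small subunit's between -0.15 and 0.25, always lowest without Altre-KO library 1 and highest without Altre-KO library 2. The log2 difference of the large to small ratio ran the other way, from -0.098 without Altre-KO library 2 to 0.013 without Altre-KO library 1. By the median of log2(CPM + 1) in place of the sum, the large subunit was -0.13, the small subunit 0.28 and the ratio -0.41. List medians ran between -0.15 and 0.17 for components outside the symbol rule, -0.028 and 0.15 for 5'TOP genes, -0.12 and 0.074 for initiation factors, -0.11 and 0.12 for biogenesis factors, -0.19 and 0.078 for mTORC1 and TOP regulators, and -0.13 and 0.21 for mitochondrial ribosomal proteins. The paralogue share differed between genotypes by -0.064 to 1.00 percentage points for RPL22L1, by -1.33 to 0.18 for RPL39L, by 0.949 to 5.24 for RPL7L1 and by 4.0 to 16.2 for RPS27L. The cause was not tested. With 2 libraries a genotype and a single read worth up to 0.547 CPM, differences of low members are not resolved.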
